A study of Homo sapiens with 6 samples.

Results

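The genes described here are those of the interferon response and of nucleic acid sensing: sensors of DNA and RNA, interferons, their receptors and signalling proteins, and interferon stimulated genes. They were taken from a list of 59 names because both groups of cells were given plasmid DNA. In all, 57 of them were read, through 103 probesets (groups of short oligonucleotides for 1 transcript), out of 19775 genes on the array. Each gene was read by its brightest probeset over the 6 arrays. TREX1, an exonuclease that degrades cytosolic DNA, was only on probesets shared with the neighbouring gene ATRIP and was not read, and neither was STAT2.

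Whole genome mRNA was measured in EJ/T24, an established cell line of invasive bladder cancer, on 6 HG-U133 Plus 2.0 arrays. The FOXA1 group held 3 arrays of cells transfected with a construct of FOXA1, a pioneer factor of the forkhead family that acts at luminal and endodermal genes. The control group held 3 arrays of cells given the empty plasmid, which the labels name pUC19, while the methods describe a pcDNA3 vector. Both groups were grown in DMEM with FCS and transfected with plasmid DNA and a Lipofectamine reagent. No untransfected cells were analysed here, so a response shared by both groups would not appear as a difference. If the labels hold, the groups may also differ in plasmid backbone. A difference made by the backbone could then not be told apart from one made by FOXA1. The time after transfection and the share of cells that took up plasmid are not given in the sources used here. The methods describe triplicate experiments without saying that each array had a dish of its own, so a p-value here speaks of array to array spread only, and that spread may be technical. Differences are FOXA1 minus control by the sample labels. The study's own table of changed genes runs in the opposite direction for the probesets it lists.

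FOXA1 itself, read first as a check of the labels, had a signal of 38.9, 34.8 and 31.9 in the FOXA1 arrays, against 21.8, 24.4 and 21 in control arrays (log2 difference 0.65, SE 0.23, adjusted p = 0.307 by limma). The groups did not overlap at this probeset, whereas the second, dimmer FOXA1 probeset overlapped and had a difference of -0.54 (SE 0.64). The brighter probeset thus went with the labels, but at an adjusted p of 0.307 by limma and with the other of opposite sign. This check therefore did not settle the direction of the labels, and every difference below is by the labels as given. Median signal over all probesets was 14.4 to 17.5 in FOXA1 arrays and 12.3 to 16.1 in control arrays. RNA integrity was read from control probesets at either end of a transcript. The 3' over 5' ratio of ACTB was 2.37 ± 0.228 in FOXA1 arrays and 1.73 ± 0.188 in control arrays (SD, n = 3 each) and did not overlap, whereas that of GAPDH was 0.920 and 0.899. The FOXA1 arrays correlated as well with control arrays (mean r for each array 0.926 to 0.932) as with their own group (0.926 to 0.930), whereas control arrays had a higher r within their own group (0.934 to 0.935) than with FOXA1 arrays (0.926 to 0.931). KRT18 and VIM, keratin and vimentin filaments of this line, had signals of 2080 to 2544 and 3494 to 4460 over the 6 arrays, whereas the epithelial genes EPCAM, CDH1 and KRT19 had 0.6 to 8. The epithelial keratins KRT7 and KRT8 lay between, at 18.4 to 33.8 and 22.2 to 34.5. KRT7 was higher in FOXA1 arrays without overlap (log2 0.37, SE 0.27, adjusted p = 0.650 by limma). So was the brighter HRAS, on the same list of 8 markers, with 527.9, 540.1 and 526.7 against 405.3, 407.9 and 425.6 (log2 0.36, SE 0.075, adjusted p = 0.118). Of 12 markers of leukocytes, another source of interferon genes, 11 were read. Their summed signal was 91.6 to 106.2 in FOXA1 arrays and 66.7 to 90.9 in control arrays, so the sums did not overlap. The median log2 difference was 0.45 (8 above 0). Their signals were low, with a median of 4.7 to 9.5 in each array, and 6 were under 3.5 in at least 1 array. Over all genes at or under the median signal (13.5) the median difference was 0.27, with 63.7% above 0. Each of the 11 overlapped by itself, and PTPRC, the defining one, had 6.8, 7.1 and 7.9 in FOXA1 arrays against 10.4, 5.6 and 6.2 in control arrays. The part of these values in the results below was not tested.

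DNA in the cytosol is bound by CGAS, whose cyclic dinucleotide product activates STING1 on the endoplasmic reticulum. RNA is bound by the helicases RIGI and IFIH1, which signal through MAVS on mitochondria. Both routes reach the kinase TBK1 and the factor IRF3, which switch on the interferons. Secreted interferon then acts through its receptors, the kinases JAK1 and TYK2 and a complex that holds IRF9 to induce stimulated genes, many of which limit viruses. That complex binds the interferon stimulated response element (ISRE) in promoters, whereas interferon gamma acts at the gamma activated site (GAS).

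The ISRE was looked for in the members' own promoters as the core GAAANNGAAA on either strand, within 250 bases before the start (RefSeq, build GRCh38.p14). Among 43 members with a promoter in the table, 20 (46.5%) held it, against 3.07% of all 27305 promoters. The 4 stretches printed here are those of the members among the 12 with the smallest p that held the core at least 2 times. That all 4 share the core follows from this choice. They are written on the strand of the gene, and capitals mark the core on either strand. IFI6 (chr1:27672251-27672373, minus strand) lies 181 to 59 bases before the start and holds 3 cores. IFIT3 (chr10:89327816-89327909, plus strand) lies 181 to 88 bases before it, DDX60 (chr4:168318771-168318865, minus strand) 113 to 19 bases and IFIT5 (chr10:89414498-89414567, plus strand) 70 to 1 bases, each with 2 cores.
IFI6: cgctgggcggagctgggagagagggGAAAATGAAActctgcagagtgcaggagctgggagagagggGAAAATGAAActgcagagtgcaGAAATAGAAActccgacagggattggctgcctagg
IFIT3: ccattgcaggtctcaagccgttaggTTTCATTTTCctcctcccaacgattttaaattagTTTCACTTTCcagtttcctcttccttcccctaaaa
DDX60: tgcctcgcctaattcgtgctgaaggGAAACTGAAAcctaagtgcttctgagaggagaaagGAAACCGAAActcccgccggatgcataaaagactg
IFIT5: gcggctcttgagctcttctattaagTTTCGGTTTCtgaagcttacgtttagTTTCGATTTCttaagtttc

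IFI6, IFIT3 and IFIT5 read higher in FOXA1 cells and DDX60 read lower, so that promoters with the same core stood on either side of 0. Over the 20 members with the core the median log2 difference was -0.039, with 9 above 0, and over the 21 measured members whose promoter lacked it the median was 0.21, with 12 above 0. The GAS core TTCNNNGAA was in 10 promoters (23.3%), against 6.78% of all, with a median difference of 0.22 (6 above 0) in those with it and -0.029 (15 of 31 above 0) in those without. IRF1 held it as TTCCCCGAA at chr5:132490889-132490897. ISRE and GAS matches shared bases in IFI27 and BST2, and overlapping matches were each counted. A forkhead core, TGTTTAC, the sequence that factors of the FOXA1 family bind, was in the promoters of 2 members, CMPK2 and IFNAR1 (4.65%), against 2.98% of all. A match of these letters is a description of the sequence, not a bound site.

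**Figure D1:**
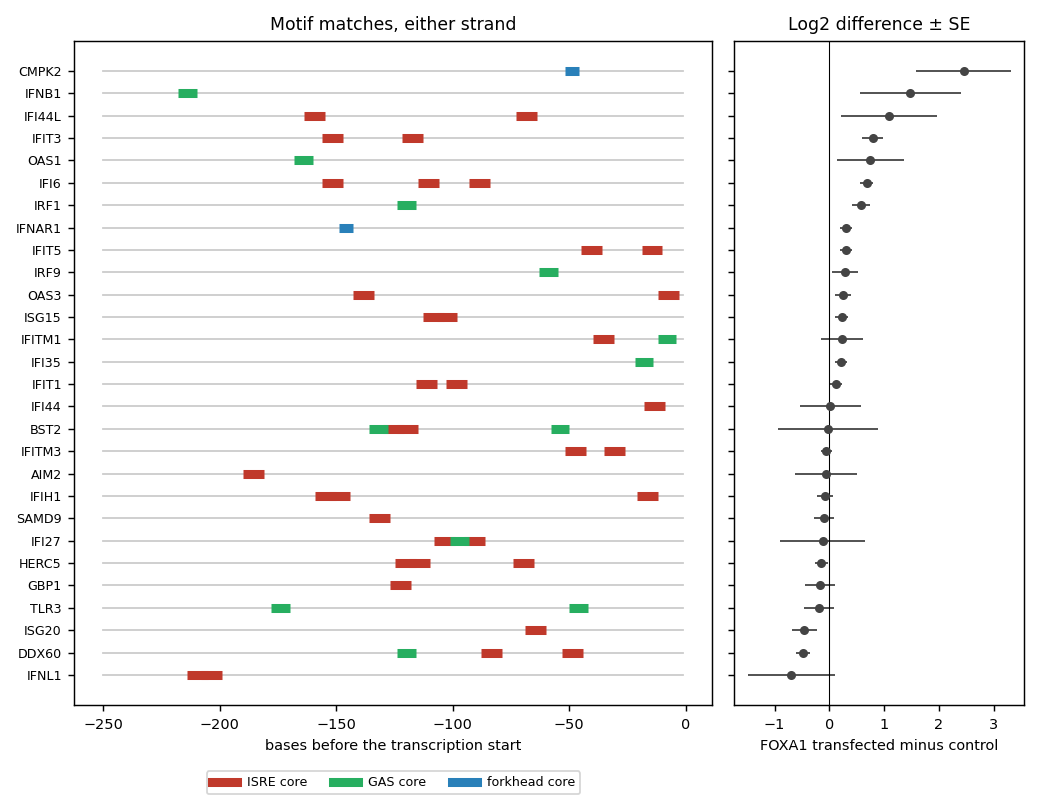
Matches of the 3 cores in the 250 bases before the transcription start (left, x axis in bases, red for ISRE, green for GAS, blue for forkhead) and log2 difference in signal, FOXA1 minus control, with 1 SE of limma (right), for each measured member with a match. Members run from CMPK2 at the top (2.45) to IFNL1 at the bottom (-0.69), and ISRE cores occur from IFI44L (1.08) down to IFNL1.

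No member passed the threshold. By limma with Benjamini-Hochberg adjustment over all 54613 probesets, 0 of 57 members had an adjusted p under 0.05 in either direction, where 12 of all genes (0.0607%) were called higher and 6 (0.0303%) lower. SAM, the test that the methods name, run here on log2 of the MAS5 signal, also called 0 members. Its calls over all probesets were not counted, so that 0 has no share of all genes beside it. At an unadjusted p under 0.05, 8 members (14.0%) were higher, against 9.07% of all genes, and 3 (5.26%) were lower, against 5.49%. Groups did not overlap for 12 members that were higher in FOXA1 cells (21.1%), against 12.5% of all genes, and for 5 that were lower (8.77%), against 7.25%. Thus members that read higher were somewhat more frequent than over all genes by either count, a description of the list and not a test of it.

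The median log2 difference of the 57 members was 0.21, against 0.074 over all genes, while the share above 0 was nearly the same (34 of 57, or 59.6%, against 59.2%). Much of the gap lay among dim genes. Over the 38 members brighter than the median signal of all probesets (13.5) the median was 0.078, against 0.036 for all genes that bright, and over the 19 dimmer ones it was 0.70, against 0.27. In 12 members the signal was under 3.5, the 20th percentile of all signals, in at least 1 array, and in DHX58 it was so in all 6. FOXA1 array 1 carried part of the median: without it the value was 0.087. The members' median deviation from their mean over 6 arrays was 0.19, 0.033 and 0.061 in the FOXA1 arrays. In control arrays it was -0.059, -0.15 and 0.012. Over all genes that deviation was 0.060, 0.020 and 0.051 in the FOXA1 arrays, against -0.024, -0.074 and 0.034. With each array centred on its median, the median of all genes moved to -0.11 and that of the members to 0.025. The members then had 7 of 57 genes higher without overlap (12.3%), against 4.86% of all genes, and 7 lower (12.3%), against 8.87%. Centring took IFIT3 to 0.61, IRF3 to 0.51, IFI6 to 0.50, IRF1 to 0.40, IFNAR1 to 0.13 and IFIT5 to 0.12. On the lower side it took IFNAR2 to -0.52, DDX60 to -0.66 and GBP2 to -1.34.

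**Figure D2:**
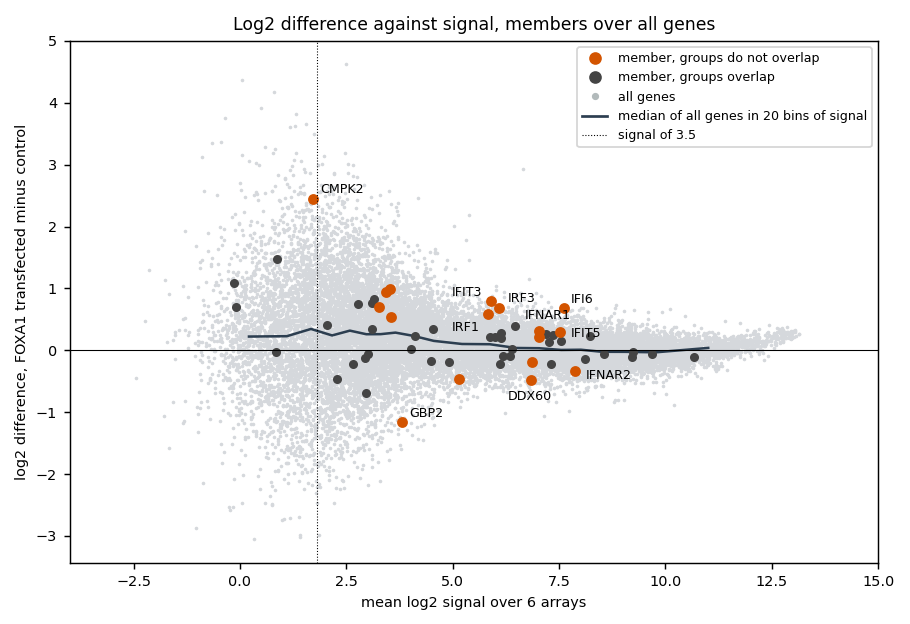
Log2 difference in signal, FOXA1 minus control (y), against mean log2 signal over the 6 arrays (x), for all genes (grey) and members (orange where the groups do not overlap, dark otherwise), with the median of all genes in 20 bins of signal as a line. Members brighter than the median signal run from -1.16 (GBP2) to 0.79 (IFIT3), and the largest difference, 2.45 for CMPK2, lies among dim genes, where all genes spread widely.

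DNA sensors had low or overlapping values, with STING1 as the one whose groups did not overlap. CGAS, the cytosolic sensor, had 76.8, 50.2 and 85.7 in FOXA1 arrays, against 66.7, 43.6 and 72.5 in control arrays (log2 difference 0.22, SE 0.24). The other, dimmer CGAS probesets gave 0.10 (SE 0.28) and -0.0074 (SE 0.82), also with overlap. STING1, the partner of CGAS, had 10.9, 16.6 and 18.1 in FOXA1 arrays and 4.8, 9.9 and 9.8 in control arrays (0.94, SE 0.48, adjusted p = 0.501). Every FOXA1 array was above every control array for STING1, but its other probeset gave 9.8, 5.2 and 2.3 against 8.2, 3.5 and 11.2, a difference of -0.49 (SE 0.74), and without control array 1 the difference at the first was 0.59.

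IFI16, a nuclear DNA sensor, had 4.7, 5.4 and 7.8 in FOXA1 arrays and 4.5, 4.9 and 14.2 in control arrays (-0.22, SE 0.65). A dimmer IFI16 probeset had 0.9, 4.1 and 3.5 against 0.3, 0.3 and 0.5, which did not overlap (2.72, SE 0.81, adjusted p = 0.246) but reached 3.5 in only part of the FOXA1 arrays. AIM2, which builds an inflammasome on DNA, had 12.1, 4.7 and 8.5 in FOXA1 arrays against 7.8, 6.3 and 11.2 in control arrays. AIM2 overlapped, as IFI16 did at its brightest probeset. TLR9, the endosomal receptor of CpG DNA, had 18.2, 3 and 16.5 against 4.5, 6 and 16.3. ZBP1, which binds Z-form nucleic acid, had 9.7, 1.5 and 7.4 against 4.1, 1.6 and 7.1. Both overlapped, and both had a signal under 3.5 in at least 1 array.

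At their brightest probesets RIGI, IFIH1 and TLR3, the sensors of RNA, gave differences below 0. With the median over probesets, taken within each array, they came to 0.20, 0.24 and 0.41. By themselves the other probesets gave 0.37 and -0.061 for RIGI, -0.039 and 0.0047 for IFIH1, and 0.41 and -1.38 for TLR3. No IFIH1 probeset thus had a difference near 0.24. RIGI had 174, 145 and 125 in FOXA1 arrays and 168, 207 and 143 in control arrays (-0.22, SE 0.16), and IFIH1 had 81.5, 82.9 and 72.1 against 80.3, 97.2 and 74.3 (-0.084, SE 0.14). TLR3, the endosomal receptor of double stranded RNA, had 20.6, 28.3 and 39.6 in FOXA1 arrays and 31.2, 27.8 and 39.1 in control arrays (-0.18, SE 0.28). The groups overlapped in all 3 genes. DHX58, a related helicase that modulates the other pair, had 1.3, 0.8 and 1.6 against 0.7, 0.7 and 0.8, all under 3.5.

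MAVS, the adaptor of this route, was lower without overlap at 2 of its 4 probesets. It had 113, 96.5 and 122 in FOXA1 arrays, against 124.5, 124.9 and 124.6 in control arrays (-0.18, SE 0.12, adjusted p = 0.616), and a second probeset had 85, 80.3 and 84.3 against 101.0, 98.9 and 95.4 (-0.24, SE 0.12, adjusted p = 0.472). The other 2 gave 0.020 and -0.40 with groups that overlapped. At the brightest probeset FOXA1 array 2 was the lowest, and without it the difference was -0.087.

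Downstream of the sensors, IRF3 separated the groups and its kinase did not. TBK1 had 614, 587 and 581 in FOXA1 arrays and 514, 695 and 623 in control arrays (-0.029, SE 0.11). IRF3, its main substrate and the factor that first induces interferon beta, had 81.7, 94.4 and 83.9 in FOXA1 arrays, against 49.5, 54.8 and 56.8 in control arrays, a mean of 86.7 ± 6.79 against 53.7 ± 3.77 (SD, n = 3 each). All FOXA1 arrays of IRF3 were far above the control arrays, at 1.61-fold (log2 0.69, SE 0.14), yet the adjusted p was 0.112 and the exact two-sided permutation p was 0.1, the smallest that 3 arrays against 3 can give. IRF7, which amplifies the interferon response, had 105, 93.3 and 107 in FOXA1 arrays and 78.2, 61.1 and 98.2 in control arrays (log2 0.39, SE 0.17, adjusted p = 0.424). Its groups overlapped through control array 3, and without control array 2 the difference was 0.21.

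**Figure D3:**
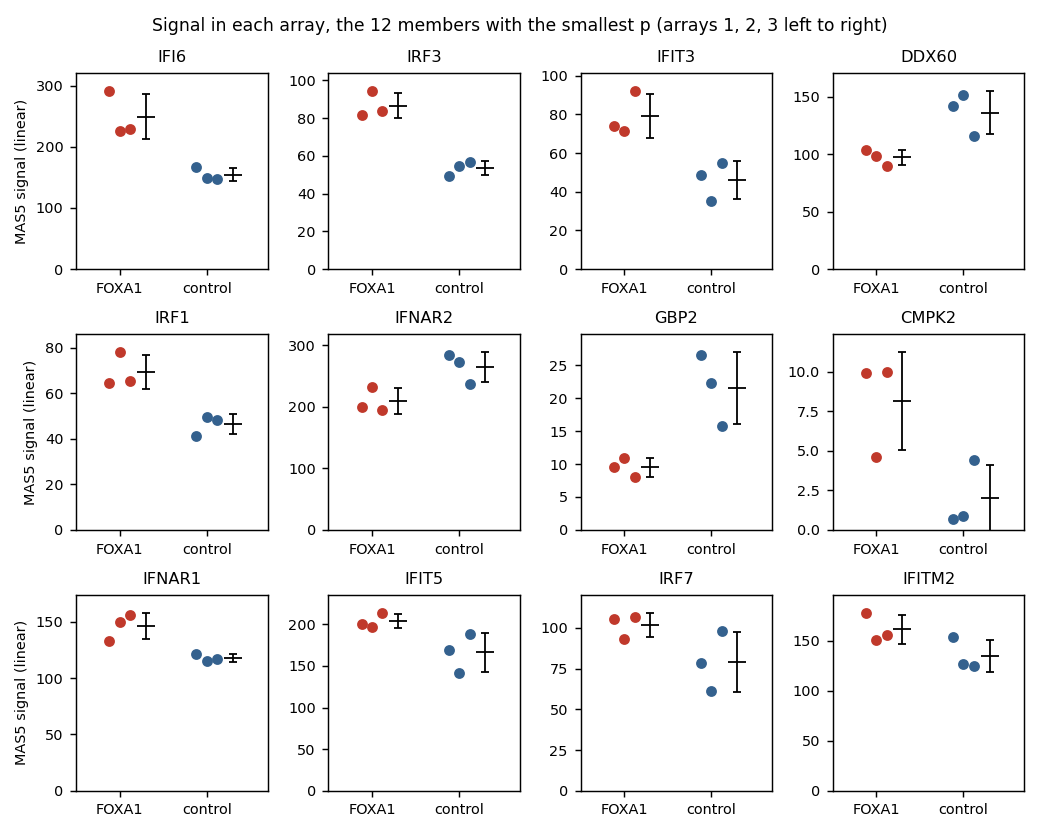
Linear MAS5 signal (y, from 0) in each FOXA1 array (red, left) and control array (blue, right) for the 12 members with the smallest limma p, with the mean and SD of 3 arrays in black beside each group. For IRF3 the gap between the groups is wider than the range within either, while IRF7 and IFITM2 overlap, and the lower end of the control bar of CMPK2 runs past 0.

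The interferons themselves had low signals in both groups. IFNB1, interferon beta, had 8.8, 2 and 1.6 in FOXA1 arrays and 0.5, 1.3 and 2 in control arrays, with 5 of the 6 values under 3.5 (log2 1.48, SE 0.92, adjusted p = 0.589). IFNL1, a type III interferon, had 1.5, 9.6 and 15.7 against 11.3, 7.8 and 10.8 (-0.69, SE 0.80). A single FOXA1 array stood apart in each, high for IFNB1 and low for IFNL1, and the groups overlapped.

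The subunits of the type I receptor, which pair to bind interferon alpha and beta, differed in direction. IFNAR1 had 133.2, 150.1 and 156 in FOXA1 arrays, against 122, 115 and 117 in control arrays (0.31, SE 0.11, adjusted p = 0.316). IFNAR2 had 199, 233 and 196 in FOXA1 arrays, against 284, 273 and 237 in control arrays (-0.34, SE 0.11, adjusted p = 0.274). Neither overlapped, with FOXA1 arrays above control arrays for IFNAR1 and below them for IFNAR2. A second IFNAR2 probeset had 144, 151 and 150 against 199, 176 and 184, also without overlap (-0.33, SE 0.099), and the third gave -0.15. The other 3 IFNAR1 probesets gave 0.23, -0.10 and 0.29 with overlap, so the separation of the groups rests on 1 probeset. With the median over its probesets IFNAR1 came to 0.068.

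The interferon gamma receptor and the kinases overlapped between groups at their brightest probesets. IFNGR1, the ligand binding chain, had 566, 618 and 536 in FOXA1 arrays and 597, 674 and 592 in control arrays (-0.12, SE 0.088), while another probeset had 219, 205 and 160.4 against 225.5, 278 and 252, without overlap (-0.38, SE 0.13, adjusted p = 0.301), and the third, dim one gave 0.094. IFNGR2, the other chain, had 912, 825 and 698 against 828, 858 and 828 (-0.054, SE 0.097). JAK1, used by all interferon receptors, had 1622, 1761 and 1383 in FOXA1 arrays and 1708, 1833 and 1552 in control arrays (-0.10, SE 0.10). Of the 5 JAK1 probesets 1 was lower without overlap, at 623.5, 579.5 and 545 against 736, 699.5 and 653 (-0.26, SE 0.084, adjusted p = 0.283), and the dimmest gave 0.39. TYK2, its partner at the type I receptor, had 182, 226 and 188 against 180.3, 192 and 163 (0.15, SE 0.11).

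Among the factors that carry the signal to promoters, IRF1 was the one without overlap. IRF1, an activator at the ISRE that interferon gamma itself induces, had 64.7, 78.2 and 65.4 in FOXA1 arrays, against 41.4, 49.6 and 48.1 in control arrays (1.50-fold, log2 0.58, SE 0.16, adjusted p = 0.212). Its other probeset had 6.9, 22.9 and 35.4 against 27.1, 24.9 and 21.3, a difference of -0.45 (SE 0.51) with wide spread in FOXA1 arrays, and the median over both gave 0.064. IRF2, which competes with IRF1 for the same element, had 90.7, 91.3 and 74.9 against 84.5, 89 and 77.8 (0.028, SE 0.14). IRF9, the DNA binding part of the interferon alpha complex, had 112, 55 and 76.9 against 74, 68.6 and 52.2 (0.28, SE 0.24), with FOXA1 array 1 far above the other arrays and FOXA1 array 2 among the lowest. IRF1 and IRF2 thus differed in that only IRF1 had FOXA1 arrays clear of control arrays, a contrast between the genes that was not tested.

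The 32 stimulated genes had a median log2 difference of 0.22, with 21 above 0 and 11 below. At an unadjusted p under 0.05, 4 of the 32 were higher and 2 lower, where all genes had 9.07% and 5.49%, and 8 were higher and 3 lower without overlap, where all genes had 12.5% and 7.25%. Their median deviation was 0.30, 0.041 and -0.00024 in the FOXA1 arrays, against -0.091, -0.17 and 0.024 in control arrays. FOXA1 array 1 thus stood above the other FOXA1 arrays, and it was also the highest over all genes, by less (0.060, 0.020 and 0.051). The ISG15 system and the membrane proteins showed no common direction, whereas all 4 members of the IFIT family had differences above 0, as 59.2% of all genes did, though median centring took IFIT1 to -0.053 and IFIT2 to 0.018.

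**Figure D4:**
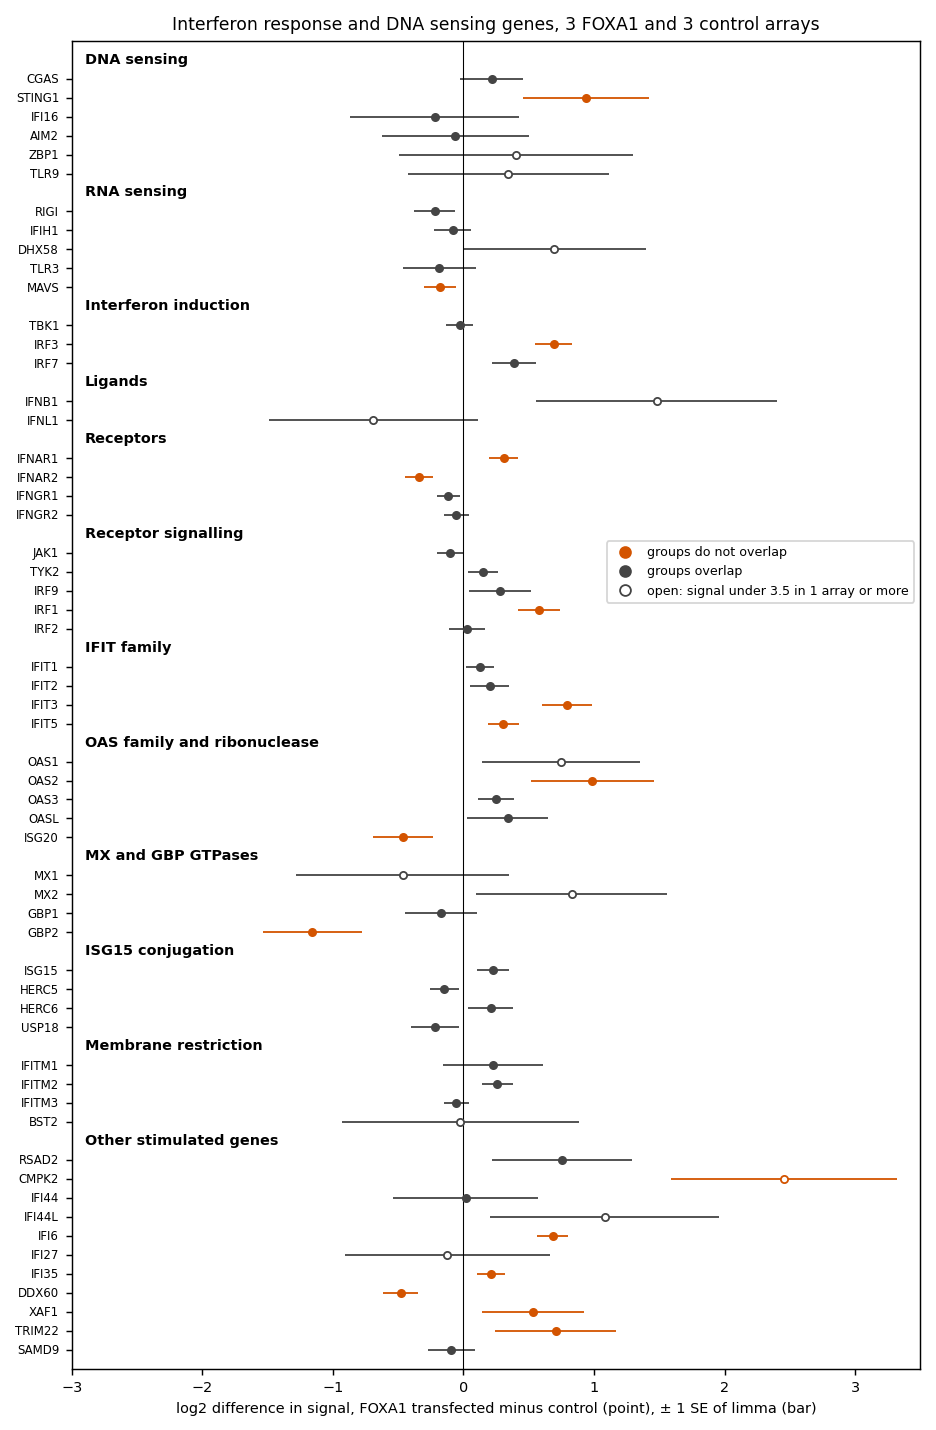
Log2 difference in signal, FOXA1 minus control (x), for the 57 measured members by role, with 1 SE of limma as the bar, orange where the groups do not overlap and open where a signal was under 3.5 in 1 array or more. The 4 IFIT genes lie right of 0 (0.13 to 0.79, although IFIT1 falls to -0.053 with median centring), the MX and GBP group lies on both sides (-1.16 to 0.83), and the open points carry the widest bars.

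IFIT proteins bind foreign RNA ends and block its translation. IFIT3 had 73.8, 71.6 and 92.1 in FOXA1 arrays, against 48.5, 35.4 and 54.7 in control arrays (1.73-fold, log2 0.79, SE 0.19, adjusted p = 0.170). A second IFIT3 probeset had 54.7, 46.8 and 52.4 against 27.5, 28 and 45.5 (0.65, SE 0.23), so that both probesets of this gene separated the groups in the same direction. IFIT5 had 201, 197 and 214 in FOXA1 arrays and 169.7, 141 and 188 in control arrays (0.30, SE 0.12, adjusted p = 0.360), and its other probeset gave 0.49 with overlap. Without control array 2, the lowest, the IFIT5 difference was 0.19. IFIT1, whose promoter also held 2 ISRE cores, gave 0.13 (SE 0.11) and IFIT2 gave 0.20 (SE 0.15), and both overlapped.

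The OAS enzymes make oligoadenylates when they bind double stranded RNA. Their differences were 0.75 for OAS1 (SE 0.60), 0.99 for OAS2, 0.25 for OAS3 (SE 0.14) and 0.34 for OASL (SE 0.31). All were above 0, as 59.2% of all genes were, and OAS1, OAS3 and OASL overlapped. OAS2 was without overlap, with 17.2, 15.1 and 16.2 in FOXA1 arrays and 4.7, 9.1 and 12.6 in control arrays (SE 0.47, adjusted p = 0.463). FOXA1 arrays of OAS2 were close together and control arrays were not, and without control array 1 the difference was 0.59. The OAS2 signal was low, and its other probesets gave 1.50 (SE 0.86) and 0.40 (SE 0.90) with overlap. ISG20, an exonuclease that degrades viral RNA, went the other way, with 33.3, 33.5 and 24.3 in FOXA1 arrays against 49.7, 40.7 and 35 in control arrays (-0.46, SE 0.23, adjusted p = 0.480). A dim ISG20 probeset with 2.7, 2 and 1.6 against 1.4, 1.6 and 1.3 gave 0.52, and the median over both reversed the sign to 0.031.

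MX and GBP proteins are GTPases that act on viral particles and on membranes around intracellular pathogens. GBP2 had the lowest difference of any member, with 9.5, 10.9 and 8.1 in FOXA1 arrays, against 26.6, 22.3 and 15.7 in control arrays (log2 -1.16, SE 0.38, adjusted p = 0.282). Each FOXA1 array of GBP2 was well under each control array, though the signal was low, and its second probeset, with 11.7, 5.8 and 6.7 against 8, 7.8 and 9.5, gave -0.13. All 4 probesets of GBP1 gave values below 0, with -0.17 (SE 0.28) at the brightest and overlap at each. MX1 (-0.47, SE 0.81) and MX2 (0.83, SE 0.73) were dim and overlapped.

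ISG15, a ubiquitin-like protein that is attached to other proteins, had 386, 283 and 304 in FOXA1 arrays and 256, 272 and 298 in control arrays (0.23, SE 0.12, adjusted p = 0.517). FOXA1 array 1 was the highest and the remaining values overlapped. The ligase HERC5 (-0.15), its relative HERC6 (0.21) and USP18, the protease that removes ISG15 (-0.22), overlapped as well. Among the membrane proteins that block virus entry, IFITM2 had 178, 151 and 156 in FOXA1 arrays, against 153, 127 and 125 in control arrays (0.26, SE 0.12, adjusted p = 0.451), and overlapped through control array 1. IFITM1 (0.23), IFITM3 (-0.055) and BST2, which tethers budding particles (-0.023, under 3.5 in 5 arrays), showed no separation. The IFITM genes are near copies of each other, and a probeset shared by IFITM1 and IFITM2 was not read, so their signals may be mixed.

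IFI6, a small membrane protein of the endoplasmic reticulum and mitochondria whose promoter with 3 ISRE cores is shown above, had the smallest p of all members. Its signal was 292, 227 and 229.5 in FOXA1 arrays, against 167, 149 and 148 in control arrays, a mean of 249 ± 36.6 against 154.5 ± 11.1 (SD, n = 3 each). The lowest FOXA1 array was well above the highest control array, and the ratio was 1.60 (log2 0.68, SE 0.12, adjusted p = 0.0827). IFI6 was the 1 member to pass the threshold under any alternative, with adjusted p = 0.0341 when dim probesets (mean signal of 13.5 or less) were dropped and adjusted p = 0.0403 with the replicate number as a block. Its adjusted p ranged from 0.0341 to 0.522 over all alternatives. With each array left out its difference stayed between 0.56 and 0.75, and median centring gave the lowest value, 0.50 (adjusted p = 0.429 by limma).

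DDX60, a helicase that assists RNA sensing and whose promoter holds 2 ISRE cores, was lower in FOXA1 cells, at 103, 98.5 and 89.8, against 142, 152 and 115 in control arrays (97.2 ± 6.80 against 136 ± 18.7, SD, n = 3 each, log2 -0.48, SE 0.13, adjusted p = 0.209). No FOXA1 array reached the lowest control array. CMPK2, a mitochondrial nucleotide kinase and 1 of the 2 members with a forkhead core in the promoter, had 9.9, 4.6 and 10 in FOXA1 arrays, against 0.7, 0.9 and 4.4 in control arrays (log2 2.45, SE 0.87, adjusted p = 0.311). The gap between the closest CMPK2 arrays, 4.6 and 4.4, was small, 2 control arrays were under 3.5, and with signals raised to that floor the difference was 1.03. RSAD2, the antiviral enzyme viperin and the genomic neighbour of CMPK2, had 16.8, 7 and 11.7 in FOXA1 arrays and 5, 6.7 and 8.5 in control arrays (0.76, SE 0.54), with overlap.

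Of the other stimulated genes, IFI35, XAF1 and TRIM22 were higher without overlap at p well above the threshold. IFI35 had 138, 138 and 143 in FOXA1 arrays against 116, 116 and 131 in control arrays (0.21, SE 0.11, adjusted p = 0.497), which centring reduced to 0.028. XAF1, a pro-apoptotic factor, had 14.4, 13.2 and 14.7 against 9.4, 9.8 and 10 (0.53, SE 0.39, adjusted p = 0.656), while its other probesets, with 15.7, 7.8 and 10.7 against 12.3, 7.4 and 14.6 and with 14.6, 11.5 and 10.8 against 7.2, 2.5 and 21.1, gave -0.0068 and 0.75 with overlap. TRIM22, an antiviral ubiquitin ligase, had 13.5, 12.3 and 11.4 against 9.3, 5.4 and 8.7 (0.71, SE 0.47, adjusted p = 0.613), and 0.46 without control array 2. The signals of XAF1 and TRIM22 were low in all 6 arrays. IFI44 (0.016), IFI44L (1.08, under 3.5 in 5 arrays), IFI27 (-0.12) and SAMD9 (-0.093) overlapped.

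Of the 28 members read by more than 1 probeset, 15 had probesets on both sides of 0 and 13 had all on one side. Among the 103 member probesets, 14 were higher without overlap, against 10.5% of all 54613 probesets, and 9 were lower, against 5.86%. In all, 17 had an unadjusted p under 0.05, against 11.3% of all probesets, and 0 passed the threshold. IFIT3 and IFNAR2 had 2 probesets each that separated the groups in the same direction. MAVS did so as well, although a further MAVS probeset had the opposite sign (0.020). STING1, IFI16, IFNAR1, IFNGR1, JAK1, IRF1, ISG20 and XAF1 had 1 probeset that separated the groups and another of opposite sign. Because RNA was read from whole cultures, fewer cells with a transcript and less RNA per cell cannot be told apart.

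**Figure D5:**
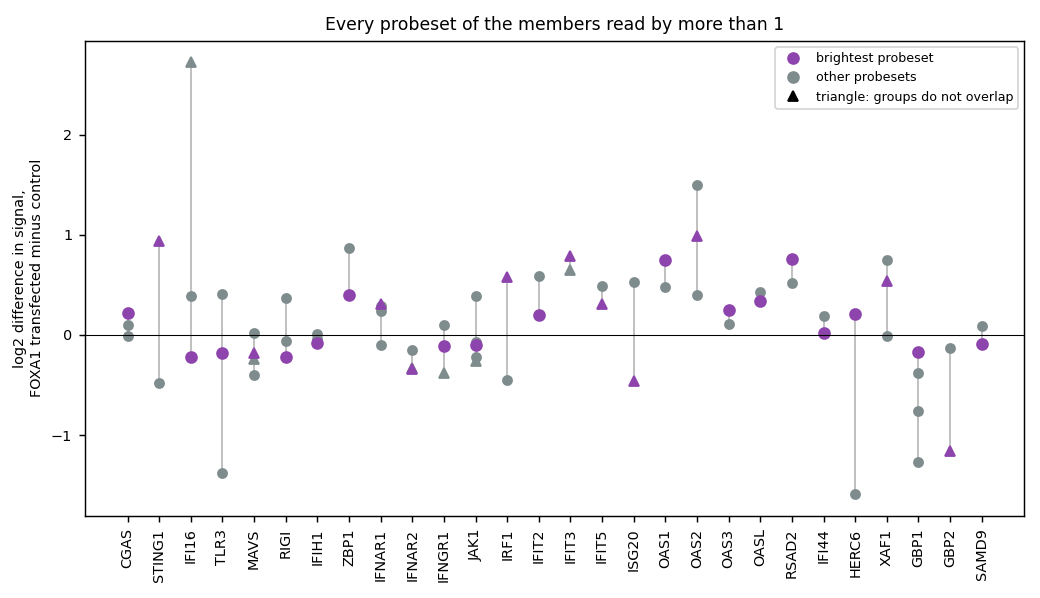
Log2 difference in signal, FOXA1 minus control (y), for every probeset of the 28 members with more than 1 (x), purple for the brightest, grey for the others, triangles where the groups do not overlap. IFIT3 and IFNAR2 have their probesets close together on one side of 0, while those of STING1 and IRF1 lie on both sides.

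Of 71 other genes of the pathway that were not on the list, among them adaptors, other interferons, negative regulators and antigen processing genes, 67 were read, with a median log2 difference of 0.13, 43 above 0 and 24 below. None passed the threshold. At an unadjusted p under 0.05, 12 of the 67 were higher and 5 lower, beside 9.07% and 5.49% of all genes, and 13 were higher and 6 lower without overlap, beside 12.5% and 7.25%. The genes of smallest p there, chosen after their values were seen, were SP100, a nuclear body protein (-0.40, SE 0.088, adjusted p = 0.140), and PNPT1, a mitochondrial exoribonuclease (0.36, SE 0.095, adjusted p = 0.198). SP100 had 319.5, 293 and 299 in FOXA1 arrays against 395, 432 and 377 in control arrays, and PNPT1 had 685, 606 and 579 against 528, 445 and 487. Differences in both directions without overlap were thus present among these genes as among the members.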

How the data were processed

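The samples were 3 arrays of FOXA1 transfected EJ/T24 cells and 3 of cells given an empty plasmid, grouped by the sample labels. The deposited values are an intensity for each probeset, the linear MAS5 signal, made by the authors with Microarray Analysis Suite and scaled within each array. The methods go on to RMA log2 values and SAM, which these signals do not include. All columns of sample values were mapped to a sample.

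Signals were converted to log2 after 25 values of 0 were set to 0.1. The 62 array controls were left out, and the remaining 54613 probesets went into a two-sided test in R 4.3.3 with limma 3.58.1 (lmFit, then eBayes, trend on mean signal), adjusted by Benjamini and Hochberg, with 0.05 as threshold. Single values also had an exact permutation test, two-sided, on all arrangements of 3 arrays against 3, which cannot give a p below 0.1. Symbols came from the platform annotation, where 41091 probesets had 1 symbol (41037 matched a current gene by Entrez number), 1801 had several and 11721 had none. Probesets with several symbols named no gene. Numbers of arrays limit the precision of every value.

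The members, the role groups and the lists of other genes were chosen with earlier results of these data known. Values in each array were given for the 12 members with the smallest p, for sensors, interferons, receptors and signalling genes, and for members whose probesets differed in sign with 1 that did not overlap. Promoter stretches were printed for those of the 12 with at least 2 ISRE cores, from RefSeq tables of GRCh38.p14. IFI35, TRIM22 and RSAD2 and other stimulated genes given in each array beyond this rule were added after their values were seen.

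The alternatives were SAM (all arrangements, false discovery rate under 5%), limma without the trend, quantile normalization, median centring, a floor at the 20th percentile (3.5), leaving out dim probesets (at or under 13.5) or those named _x_at, the median over probesets, a block on replicate number, and arrays left out singly. Scripts were tested on simulated data.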

Additional observations from a re-analysis of the deposited data

How the results depend on the processing

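Under all alternatives tried, 34 of the 57 members had no change of sign and 23 had one, with DHX58 counted in the 34 although it came to 0 at the floor. Of the 18 with groups that did not overlap or an unadjusted p under 0.05, 1 changed sign: ISG20, at 0.031 with the median over its probesets. With median centring, 7 of 57 members were higher and 7 lower without overlap, against 4.86% and 8.87% of all genes, and the members' median was 0.025, beside -0.11 over all genes, of which 38.3% were above 0 in place of 59.2%. With dim probesets left out, 38 members and 12095 genes remained. Of these, 1 member (IFI6) and 95 genes passed the threshold. Without overlap 7 members were higher (18.4%), against 14.6% of the genes, and 5 were lower (13.2%), against 10.4%. The members' median was 0.078, beside 0.036 over the genes. With the replicate number as a block, 1 member (IFI6) passed. The same numbers did not pair the arrays by the rule set (r of deviations 0.050, 0.18 and 0.11), although each array correlated best with its own number. The block moved the genes past the threshold to 48 of all, against 18 without it.

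With each array left out in turn, 0 members passed in either direction, where 1 to 38 of all genes did. Without overlap 13 to 21 members were higher (22.8% to 36.8%), against 15.9% to 23.4% of all genes. Lower without overlap were 5 to 8 (8.77% to 14.0%), against 10.3% to 12.1%. The members' median was 0.087 to 0.28, beside 0.034 to 0.11 over all genes. The highest counts were 21 (36.8%) without FOXA1 array 2 and 20 (35.1%) without control array 3. In these fits 20.1% and 23.4% of all genes were higher without overlap, against 12.5% with all 6 arrays. The lowest median, 0.087, and the 8 lower members came without FOXA1 array 1. Over all probesets the number past the threshold was 32, against 1 without the intensity trend, 7 with centring and 179 without dim probesets. With the median over probesets 10 genes passed, against 18 by the brightest probeset. Low signal limits DHX58, BST2, IFNB1 and IFI44L most, which lay under 3.5 in 5 or 6 arrays.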
